A study of Mus musculus with 10 samples.

Results

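A set of 10 genes of leukotriene and prostaglandin synthesis was described, consisting of Alox5, Alox5ap, Ltc4s, Lta4h, Ptgs1, Ptgs2, Hpgds, Ptgds, Cysltr1 and Acsl4. They were taken by symbol from a table of transcript levels, in which these 10 symbols have 15 rows, of 24394 symbols and 66548 rows in all. The table was made by RNA-seq of whole lung from 10 adult females of the BALB/c strain, which fall into 3 groups. The Saline mice (n = 3) received saline without ovalbumin. The OVA mice (n = 3) were sensitized to ovalbumin, an egg protein, by injection with an aluminium adjuvant and then challenged through the nose, which is a common model of allergic asthma. Herb mice (n = 4) went through the same ovalbumin protocol and were also given an ethanol extract of Descurainia sophia seeds (DSE). No genetic change was carried by any group, and the libraries came from subsets of larger groups of mice.

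Leukotrienes and prostaglandins are short-lived lipid signals made from arachidonic acid. Acsl4 attaches coenzyme A to arachidonic acid, which directs it into membrane phospholipids. After its release, 5-lipoxygenase (Alox5) with its membrane helper FLAP (Alox5ap) makes leukotriene A4, from which Lta4h makes leukotriene B4, a neutrophil attractant, and Ltc4s makes leukotriene C4, the parent of the cysteinyl leukotrienes that contract airways through the receptor Cysltr1. The cyclooxygenases Ptgs1 and Ptgs2 instead make prostaglandin H2, which Hpgds, found in mast cells and other immune cells, and Ptgds, found in brain and other tissues, turn into prostaglandin D2.

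Levels are given as FPKM (fragments per length of transcript, scaled to the mapped fragments of a library), summed over the rows of a gene. The upper quartile of the deposited FPKM differed between the groups, at 4.87 to 4.95 in Saline, 2.18 to 2.72 in OVA and 3.48 to 4.27 in Herb libraries. Each library was therefore multiplied by 0.734 to 1.67 to a common 75th percentile, and these values are called rescaled FPKM. About 14700000 to 29400000 fragments per library were estimated from the table. At this depth the most sparsely covered enzyme above 0, Ltc4s, rests on about 21.1 to 61.1 fragments per library, and Lta4h on about 218 to 439. In bulk lung, fewer cells of a type and less RNA per cell cannot be told apart. All p-values measure the spread between these mice.

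None of the members passed the test in any of the 3 comparisons. In OVA vs. Saline, 0 of 7 members tested were called (limma, adjusted p under 0.05), against 42.2% of the 11174 genes tested, of which 19.8% were higher and 22.4% were lower. In Herb vs. OVA the count was also 0 of 7, where 0.689% of all genes were called, 0.331% higher and 0.358% lower. In Herb vs. Saline, 0 of 7 were called, beside 14.4% of all genes, 6.88% higher and 7.54% lower. At an unadjusted p under 0.05 the counts were 0, 1 and 0, the 1 being Ptgs1 in Herb vs. OVA. Over all genes, 5704, 3028 and 3708 of 11174 reached that threshold. The median log2 difference of the 7 members was 0.08, -0.06 and -0.15 in the order above, beside -0.03, 0.03 and 0.00 over all genes. Hpgds, Cysltr1 and Ptgds have a mean under 1 rescaled FPKM and did not enter that test. Values for Hpgds and Cysltr1 come from the same fit without the filter.

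As FPKM is per length, levels can be ranked between genes. By the mean rescaled FPKM over the 10 libraries the order was Acsl4 at 9.52 ± 6.02 (SD), Lta4h at 7.85 ± 0.428, Alox5ap at 6.85 ± 2.09, Ptgs1 at 3.49 ± 3.13, Ltc4s at 2.67 ± 0.766, Ptgs2 at 1.79 ± 0.729, Alox5 at 1.68 ± 0.299, Cysltr1 at 0.941 ± 0.234 and Hpgds at 0.830 ± 0.146, with Ptgds last. Neighbours in this order overlapped in range, with the exception of Hpgds and Ptgds. The place of Ptgds rests on listed values that can be failed estimates, as given below. The order is not the same within each group, since in OVA libraries Lta4h, at a mean of 8.17, stood above Acsl4 at 6.90, and Ptgs1, at 6.05, above Alox5ap at 5.55. The place of Ptgs1 ahead of Ltc4s rests on OVA replicate 3, without which their means over 9 libraries were 2.50 and 2.65.

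**Figure D1:**
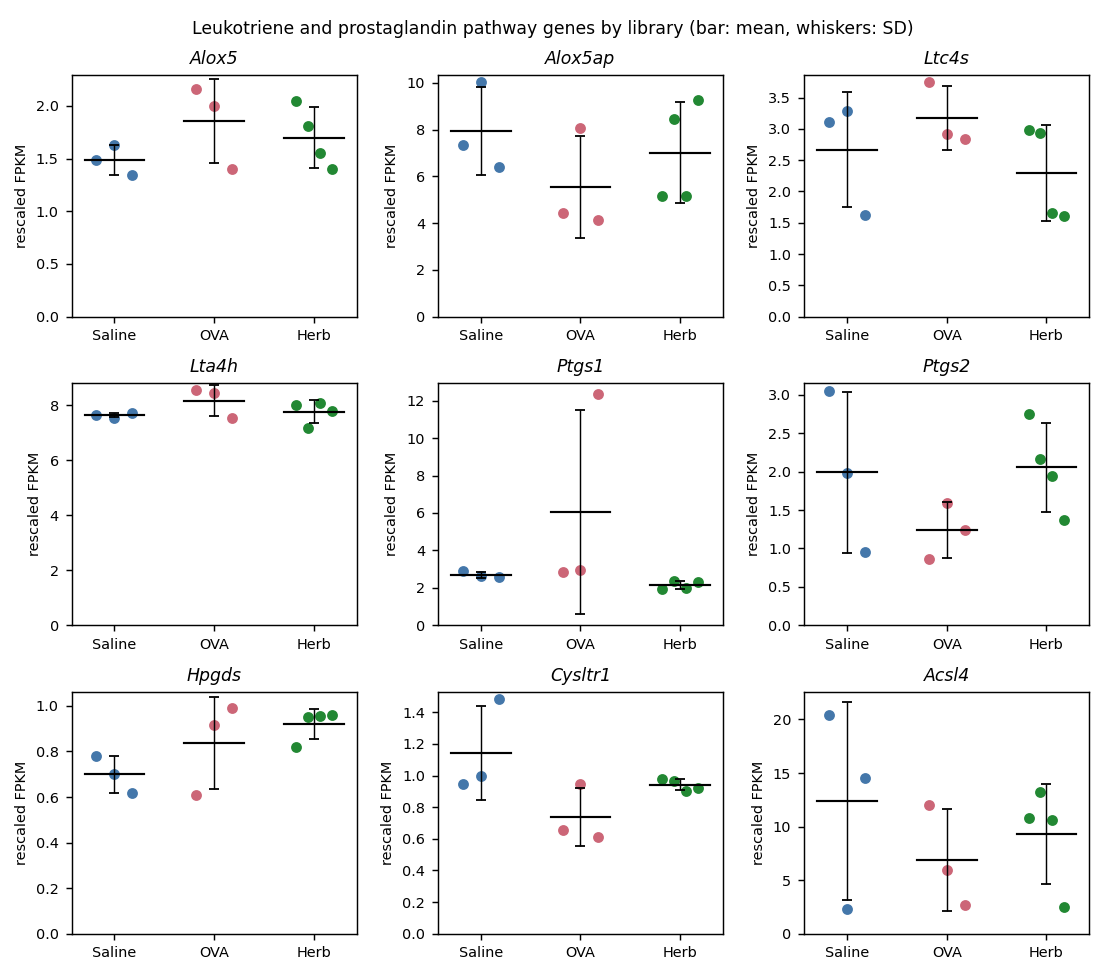
Rescaled FPKM (vertical axis, from 0) of 9 pathway genes in each library of the Saline, OVA and Herb groups (points), with the group mean (bar) and SD (whiskers). Ptgs1 stands at 12.4 in 1 OVA library and between 1.94 and 2.94 in the other 9, and Lta4h lies between 7.16 and 8.55 in all 10.

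Alox5 (chromosome 6, 116410077-116461178 of GRCm38, minus strand), the enzyme that opens the leukotriene pathway, was at 1.49, 1.63 and 1.35 rescaled FPKM in Saline, 2.16, 2.003 and 1.40 in OVA, and 2.05, 1.81, 1.55 and 1.40 in Herb libraries. The groups overlap, and each holds a library near 1.4. OVA vs. Saline gave a log2 difference of 0.19 ± 0.14 (SE, limma adjusted p = 0.3), with a 95% interval from -0.13 to 0.51. Herb vs. OVA gave -0.08 ± 0.13 (adjusted p = 0.742).

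Alox5ap (chromosome 5, 149264767-149288153), which presents arachidonic acid to 5-lipoxygenase, had 7.36, 10.02 and 6.40 rescaled FPKM in Saline, 4.44, 8.08 and 4.14 in OVA and 5.16, 8.44, 5.18 and 9.28 in Herb libraries. The lowest values are 2 OVA libraries, while OVA replicate 2 lies inside the Saline range. The log2 difference in OVA vs. Saline was -0.48 ± 0.29 (SE, limma adjusted p = 0.215), with a 95% interval from -1.13 to 0.18. Herb vs. OVA differed by 0.30 ± 0.27 (adjusted p = 0.5). All but 1 library hold Alox5ap on the row NM_009663 alone. The second row, NM_001308462, is at 0.826 rescaled FPKM in Herb replicate 1 and listed at 0 elsewhere.

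Lta4h (chromosome 10, 93453411-93484875), the leukotriene A4 hydrolase, was the steadiest member. Its level was 7.64 ± 0.0841 rescaled FPKM in Saline (SD, n = 3), 8.17 ± 0.560 in OVA (n = 3) and 7.76 ± 0.426 in Herb (n = 4). The 95% intervals of its log2 differences were narrow, from -0.12 to 0.29 for OVA vs. Saline, from -0.26 to 0.13 for Herb vs. OVA and from -0.17 to 0.21 for Herb vs. Saline. Its sign and its call changed with the scaling, as given below.

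Ltc4s (chromosome 11, 50236461-50238616, minus strand), the leukotriene C4 synthase, was at 3.10, 3.28 and 1.62 rescaled FPKM in Saline, 3.76, 2.91 and 2.84 in OVA and 2.98, 2.93, 1.65 and 1.60 in Herb libraries. Saline replicate 3 and Herb replicates 3 and 4 are low, and the other 7 libraries lie between 2.84 and 3.76. The log2 difference was 0.21 ± 0.24 in OVA vs. Saline (SE, limma adjusted p = 0.516), and Herb vs. OVA gave -0.36 ± 0.23 (adjusted p = 0.33).

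Cysltr1 (chromosome X, 106574346-106603679, minus strand), the receptor for cysteinyl leukotrienes, had a summed level of 0.950, 0.997 and 1.48 rescaled FPKM in Saline, 0.656, 0.945 and 0.610 in OVA and 0.977, 0.968, 0.902 and 0.923 in Herb libraries. The highest OVA library lies just under the lowest Saline library, at 0.945 against 0.950, so the groups do not overlap on this scale. Under the protein-coding sum they overlap. In the unfiltered fit the log2 difference in OVA vs. Saline was -0.30 ± 0.13 (SE, limma adjusted p = 0.118). Herb vs. OVA differed by 0.17 ± 0.12 (adjusted p = 0.472). Its 3 rows trade places within the sum. In Herb replicate 1 the row NM_001281862 holds 0.822 and NM_021476 holds 0.150, while in Herb replicate 4 NM_021476 holds all 0.923. The third row, NM_001281859, was at most 0.401 in any library.

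Ptgs1 (chromosome 2, 36230426-36252272), the constitutive cyclooxygenase, was at 2.89, 2.64 and 2.59 rescaled FPKM in Saline, 2.85, 2.94 and 12.4 in OVA and 1.94, 2.39, 1.999 and 2.30 in Herb libraries. On this scale all 4 Herb libraries lie below both other groups. On deposited FPKM the Herb libraries, at 1.91 to 2.80, overlap the OVA libraries, at 1.71 to 8.68. Under the protein-coding sum they overlap the Saline libraries. OVA replicate 3 is far above the other 9 libraries. That OVA value corresponds to about 505 fragments, against 104 to 217 in the other libraries. Herb vs. OVA gave a log2 difference of -0.90 ± 0.38 (SE, limma adjusted p = 0.171), with a 95% interval from -1.76 to -0.03. Without OVA replicate 3 it was -0.31 ± 0.10 (limma adjusted p = 0.131, from 0.0947 to 0.391 over all alternatives). OVA vs. Saline gave 0.67 ± 0.41 (adjusted p = 0.218), and 0.07 without OVA replicate 3. Herb vs. Saline gave -0.23 ± 0.38 (adjusted p = 0.709). An annotated transcript on the opposite strand, Gm43621, shares 2022 bases with the Ptgs1 locus, and the labels and the methods name different library kits, so its part in this value was not tested.

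Ptgs2 (chromosome 1, 150100031-150108227), the inducible cyclooxygenase, was at 3.05, 1.98 and 0.952 rescaled FPKM in Saline, 0.866, 1.60 and 1.25 in OVA and 2.76, 2.16, 1.94 and 1.37 in Herb libraries. Saline libraries alone span a range wider than the distance between any group means. The log2 difference was -0.37 ± 0.27 in OVA vs. Saline (SE, limma adjusted p = 0.299), and Herb vs. OVA gave 0.44 ± 0.26 (adjusted p = 0.293).

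Of the prostaglandin D2 synthases, Hpgds was low and Ptgds was listed at or near 0. Hpgds (chromosome 6, 65117293-65144908, minus strand) was at 0.781, 0.700 and 0.619 rescaled FPKM in Saline, 0.609, 0.915 and 0.992 in OVA and 0.822, 0.950, 0.955 and 0.958 in Herb libraries. On this scale all Herb libraries are above all Saline libraries, while OVA libraries reach from below the lowest Saline value to above the highest Herb value. On deposited FPKM the Saline libraries, at 0.844 to 1.05, and the Herb libraries, at 0.904 to 1.12, overlap, with a log2 difference of 0.028. In the unfiltered fit Herb vs. Saline differed by 0.18 ± 0.10 (SE, limma adjusted p = 0.332). Ptgds (chromosome 2, 25466709-25470046, minus strand) is listed at 0 in 9 libraries and at 0.0636 deposited FPKM in Saline replicate 3, about 1.18 fragments. Such entries can be failed estimates, since the housekeeping gene Gapdh is also listed at 0 in 9 of the 10 libraries and the macrophage receptor Csf1r in 7. No ratio or fold of Ptgds is read from these values.

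Acsl4 (chromosome X, 142317993-142390535, minus strand) had the largest SE of the 9 members fitted. Its summed level was 20.4, 2.31 and 14.5 rescaled FPKM in Saline, 12.1, 5.93 and 2.70 in OVA and 10.8, 13.3, 10.6 and 2.53 in Herb libraries. Saline replicate 2, OVA replicate 3 and Herb replicate 4 are the low libraries, and each group holds 1 of them. The log2 difference was -0.57 ± 0.79 in OVA vs. Saline (SE, limma adjusted p = 0.593), with a 95% interval from -2.37 to 1.23. Herb vs. OVA gave 0.39 ± 0.74 (adjusted p = 0.769), with an interval from -1.29 to 2.08. The intervals are wide enough to hold large changes of either sign.

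The 3 rows of Acsl4 behaved differently. The row NM_019477, which the study picked as a candidate from these same libraries, was at 12.4, 1.30 and 11.05 rescaled FPKM in Saline, listed at 0 and at 1.34 and 1.31 in OVA, and at 4.79, 8.41, 6.56 and 1.21 in Herb libraries. Saline replicate 2 and Herb replicate 4 lie inside the OVA range. In the fit over transcript rows its log2 difference was -2.04 ± 0.76 in OVA vs. Saline (SE, limma adjusted p = 0.0772). For Herb vs. OVA it was 1.65 ± 0.71 (adjusted p = 0.198). As the row was selected on these samples, these values are not independent evidence of its direction. The row NM_207625 had 12.1, 2.12 and 0 in OVA libraries, beside 3.72, 0.332 and 1.63 in Saline and 0.589 to 4.08 in Herb libraries, and gave 0.43 ± 0.87 in OVA vs. Saline (adjusted p = 0.748). The row NM_001033600 reached at most 4.21 in Saline, 2.46 in OVA and 1.96 in Herb libraries, with lowest values of 0.680, 0 and 0.733, and gave -0.53 ± 0.51 in OVA vs. Saline (adjusted p = 0.469).

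OVA replicate 1 carries all of its Acsl4 on NM_207625, whereas this row held 11.2% to 18.3% of the gene in Saline libraries. In OVA replicate 3 NM_207625 is listed at 0. The models are close to each other in sequence. In the GRCm38 annotation NM_019477 differs from NM_001033600 by 3 bases (chromosome X, 142351616-142351618), at the start of an exon and ahead of the shared start codon, in a transcript of 4959 bases. NM_207625 has 321 bases that NM_019477 lacks, in segments of 290 and 31 bases, and its coding sequence is 2133 against 2010 bases. Fragments that miss these segments can belong to any of the 3 rows, so the split between rows is uncertain, and the sum is the safer measure.

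**Figure D2:**
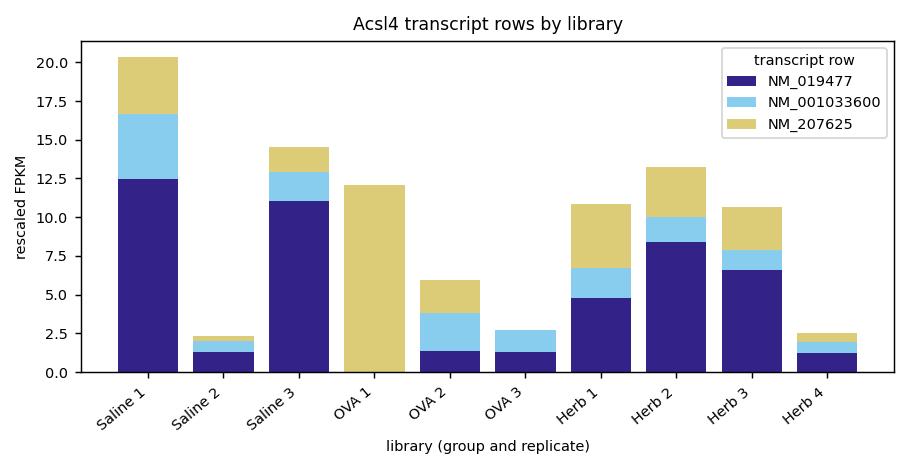
Rescaled FPKM (vertical axis, from 0) of the 3 Acsl4 transcript rows, stacked, in each of the 10 libraries. OVA replicate 1 shows NM_207625 alone, and the total is lowest in Saline replicate 2, at 2.31.

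The other 7 members have 1 row each, NM_009662 for Alox5, NM_008521 for Ltc4s, NM_008517 for Lta4h, NM_008969 for Ptgs1, NM_011198 for Ptgs2, NM_019455 for Hpgds and NM_008963 for Ptgds. Across transcript rows, 9 of the 15 member rows passed the filter and 0 were called in each comparison (limma, adjusted p under 0.05), against 25.5% of 29846 rows in OVA vs. Saline, 0.667% in Herb vs. OVA and 5.86% in Herb vs. Saline. At an unadjusted p under 0.05 the counts of member rows were 1, 2 and 0, which are Acsl4 NM_019477 in OVA vs. Saline and in Herb vs. OVA, and Ptgs1 in Herb vs. OVA. The count over all rows at that threshold was not taken. Over gene sums it was 5704, 3028 and 3708 of 11174 genes.

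The direction of several members changed with the scaling of the libraries. On the deposited FPKM with no rescaling, the median of all genes moved by -0.75 in OVA vs. Saline and by 0.48 in Herb vs. OVA on the log2 scale. On that scale 5 of 8 members tested were lower in OVA than in Saline (limma), namely Alox5, Alox5ap, Lta4h, Ptgs2 and Cysltr1, where 57.9% of all genes were lower. Lta4h differed by -0.79, close to the shift of all genes, and Alox5 by -0.42, less than that shift. In Herb vs. OVA, 2 of 8 were higher, Lta4h by 0.50 and Cysltr1 by 0.42, beside 44% of all genes. With libraries set to a common sum over protein-coding rows, which moved the median of all genes by 0.38 in OVA vs. Saline, 3 of 7 members were higher in OVA, Alox5 by 0.54, Lta4h by 0.58 and Ptgs1 by 1.08, beside 39.2% of all genes. Among members below the filter, Hpgds passed under the protein-coding sum in the unfiltered fit, at 0.34 (adjusted p = 0.0348), and Cysltr1 with quantile normalization, at -0.43 (adjusted p = 0.0326), both for OVA vs. Saline. Alox5, Lta4h, Ltc4s, Ptgs1 and Hpgds thus had negative values in OVA vs. Saline as deposited and positive values under the common 75th percentile and the common protein-coding sum, while with quantile normalization Hpgds was at -0.037. Alox5ap went from -1.31 to 0.01, and Ptgs2, Cysltr1 and Acsl4 were negative under these 3 scalings.

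**Figure D3:**
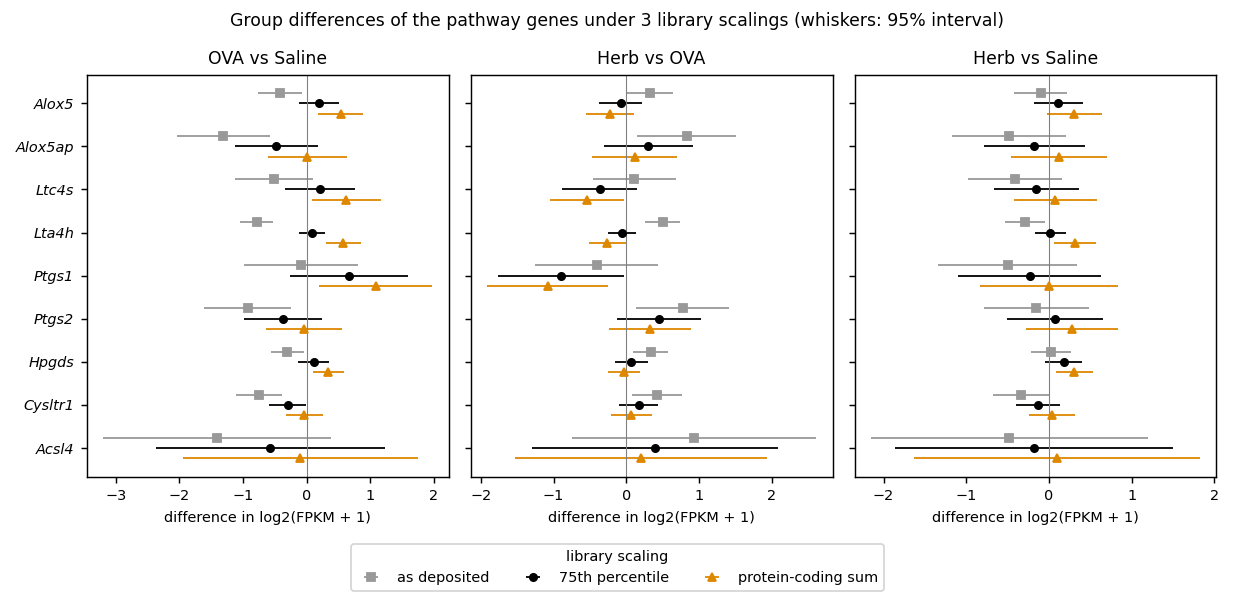
Differences in log2(FPKM + 1) between groups (horizontal axis) with 95% intervals (whiskers) for 9 pathway genes under 3 library scalings: as deposited (squares), a common 75th percentile (circles) and a common protein-coding sum (triangles). Lta4h in OVA vs. Saline runs from -0.79 as deposited to 0.58 under the protein-coding sum.

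Ratios between members within a library, taken on deposited FPKM + 0.1, depend on the scaling only through that pseudocount. Of 5 ratios fixed for the analysis, 4 can be read, since Hpgds to Ptgds rests on the pseudocount where Ptgds is listed at 0. The ratio of Ptgs2 to Ptgs1 was 1.05, 0.758 and 0.385 in Saline, 0.342, 0.564 and 0.111 in OVA and 1.40, 0.909, 0.971 and 0.610 in Herb libraries. All Herb libraries lie above all OVA libraries, by 1.75 on the log2 scale (two-sided exact permutation test, p = 0.057, the smallest p that 4 against 3 libraries allow, adjusted p = 0.429 over 15 tests). Without OVA replicate 3 the difference was 1.09. The ratio of Alox5ap to Alox5 was 2.33 ± 0.20 log2 units in Saline (SD, n = 3) and 1.47 ± 0.48 in OVA (n = 3), with no overlap between them (exact permutation p = 0.1, the smallest that 3 against 3 allow, adjusted p = 0.429). In Herb libraries it was 1.95 ± 0.59 (n = 4) and overlapped both groups. Ltc4s to Lta4h and Alox5 to Ptgs1 overlapped between groups in every comparison, with exact permutation p-values from 0.114 to 1. No ratio passed an adjusted p of 0.05, which this design cannot reach.

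Genes around the members were described from 62 other genes of arachidonate release, eicosanoid synthesis, transport and reception, of which 37 had a mean of at least 1 rescaled FPKM. In OVA vs. Saline, 9 of 37 rose and 6 fell (limma, adjusted p under 0.05), against the 19.8% and 22.4% of all genes given above. Of those that rose, Akr1b3, Alox15, Cyp4f18, Ltb4r1 and Ptgir had Saline means under 1 rescaled FPKM. They passed the filter through the groups where they are high. In Herb vs. OVA none rose and 1 fell, against 0.331% and 0.358% of all genes. In Herb vs. Saline 4 rose and 4 fell, against 6.88% and 7.54%. Herb vs. Saline is the least stable of these counts, with 0 called without Saline replicate 2. In that fit 13 of 37 had an unadjusted limma p under 0.05, beside 2690 of 11174 genes. There 42 of 11174 genes were called in all, against 1611 at the main settings. Without Saline replicate 1, Saline replicate 3, Herb replicate 1 or Herb replicate 4 it was 4 or 5, beside 530 to 823 of all genes. In Herb vs. OVA 3 were called without OVA replicate 2, beside 863 of 11174 genes. Both comparisons with OVA share the OVA libraries, and both comparisons with Saline share the Saline libraries. As deposited, without rescaling, 4 were higher and 20 lower in OVA vs. Saline, where 3.28% of all genes were higher and 57.9% were lower. On the same scale 13 were higher and 1 lower in Herb vs. OVA, beside 44% and 0.446% of all genes, and 3 were higher and 7 lower in Herb vs. Saline, beside 3.32% and 22.7%.

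Of 10 tested genes of arachidonate release and activation, Pla2g6, a calcium-independent phospholipase A2, rose in OVA vs. Saline, and Pla2g12a, a secreted phospholipase A2, fell. Over all genes 19.8% rose and 22.4% fell in that comparison. Pla2g6 was at 2.01 to 2.35 rescaled FPKM in Saline, 4.76 to 6.38 in OVA and 3.44 to 3.87 in Herb libraries, and on this scale no groups overlap. Its log2 difference was 1.10 ± 0.11 in OVA vs. Saline (SE, limma adjusted p = 0.000785) and 0.58 ± 0.11 in Herb vs. Saline (adjusted p = 0.0161). Herb vs. OVA gave -0.52 for Pla2g6 (adjusted p = 0.0615). On deposited FPKM its OVA libraries, at 3.57 to 4.48, and its Herb libraries, at 3.70 to 4.12, overlap, with a difference of 0.011, and OVA vs. Saline was 0.33 (adjusted p = 0.026). Pla2g12a was at 4.59 to 5.31 in Saline, 2.31 to 3.12 in OVA and 2.68 to 3.25 in Herb libraries. Its log2 difference was -0.71 in OVA vs. Saline (adjusted p = 0.00205) and -0.57 in Herb vs. Saline (adjusted p = 0.0173), and under the protein-coding sum neither passed. Alox15, a lipoxygenase that adds oxygen at other carbons of arachidonic acid, was at 0.0277 to 0.210 in Saline, 1.09 to 2.35 in OVA and 1.07 to 3.12 in Herb libraries. Alox15 rose by 1.29 ± 0.27 in OVA vs. Saline (adjusted p = 0.00604) and by 1.34 ± 0.25 in Herb vs. Saline (adjusted p = 0.0173) on the log2 scale. Its mean passed the filter only through the OVA and Herb libraries, so its entry into the test is tied to the groups where it is high. Without Saline replicate 2 the Herb vs. Saline calls of Pla2g6 (0.55, limma adjusted p = 0.0719) and Pla2g12a (-0.51, adjusted p = 0.0749) were lost. That of Alox15 was lost without any 1 of the Saline libraries (1.28 to 1.40, adjusted p up to 0.0671). Calls over all genes fell as well, from 1611 of 11174 to 530, 42 and 565 without Saline replicates 1, 2 and 3.

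Of 7 tested genes of leukotriene conversion and export, 3 rose and 2 fell in OVA vs. Saline, beside 19.8% and 22.4% of all genes. Cyp4f18, which inactivates leukotriene B4, was at 0.499 to 0.809 rescaled FPKM in Saline, 2.24 to 4.33 in OVA and 1.15 to 3.33 in Herb libraries, a log2 rise of 1.31 ± 0.27 in OVA vs. Saline (limma adjusted p = 0.00508). Its entry into the test is tied to the OVA and Herb libraries, through which its mean passed the filter. The dipeptidases of the family that cleaves leukotriene D4 went in opposite directions. Dpep1 was at 5.67 to 8.63 in Saline and 0.565 to 2.57 in OVA libraries, with a log2 difference of -1.56 ± 0.40 (adjusted p = 0.0137), and Dpep2 was at 1.85 to 2.22 and 3.75 to 5.08, with a difference of 0.77 ± 0.20 (adjusted p = 0.0149). Without Saline replicate 2 Dpep1 no longer passed (-1.40, adjusted p = 0.0501), and Dpep2 did not pass as deposited, at 0.033. Mgst3, which can also make leukotriene C4, was at 9.32 to 16.0 in Saline, 2.97 to 3.80 in OVA and 4.46 to 8.47 in Herb libraries, with a difference of -1.57 ± 0.24 in OVA vs. Saline (adjusted p = 0.00164). In Herb vs. Saline the log2 differences were 0.97 for Cyp4f18 (adjusted p = 0.0357), 0.65 for Dpep2 (adjusted p = 0.0494) and -0.95 for Mgst3 (adjusted p = 0.0266), and with quantile normalization none of these 3 passed. Leaving out 1 library also ended these calls. Cyp4f18 lost it without any Saline library or Herb replicate 1, 2 or 4 (0.82 to 1.05). Dpep2 lost it without any library but OVA replicate 3 or Herb replicate 2 (0.57 to 0.69). Mgst3 lost it without Saline replicate 1 or 2 or Herb replicate 1, 3 or 4 (-0.99 to -0.75). Over all genes, those fits called 42 to 1949 of 11174 in Herb vs. Saline, against 1611 at the main settings. The exporter Abcc1 was at 2.42 to 2.99 rescaled FPKM in Saline and 4.40 to 6.23 in OVA libraries, a log2 difference of 0.76 ± 0.14 (adjusted p = 0.00384), but as deposited it was -0.022 (adjusted p = 0.895), so that both its sign and its call depend on the scaling. Of 2 tested leukotriene receptors, the leukotriene B4 receptor Ltb4r1 had a difference of 0.57 ± 0.18 in OVA vs. Saline (adjusted p = 0.0311). Ltb4r1 also passed the filter through the OVA and Herb libraries, where it is high. Its call was lost as deposited (0.088, adjusted p = 0.702), and also without any 1 Saline library, OVA replicate 2 or OVA replicate 3 (0.47 to 0.59, adjusted p up to 0.0923).

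Of 8 tested terminal prostanoid synthases, Akr1b3 showed the largest rise in the list. Akr1b3, an aldo-keto reductase that also makes prostaglandin F2α, was at 0.518, 0.294 and 0.387 rescaled FPKM in Saline, 4.22, 4.74 and 5.58 in OVA and 0.521, 0.104, 0.552 and 0.459 in Herb libraries. The 3 OVA libraries are all above 4.2 and the other 7 all below 0.56. The log2 difference was 2.06 ± 0.17 in OVA vs. Saline (SE, limma adjusted p = 0.000386). For Herb vs. OVA it was -2.06 ± 0.15 (adjusted p = 0.00131), and for Herb vs. Saline -0.00 ± 0.15, with a 95% interval from -0.35 to 0.35. Akr1b3 was the only gene of the 37 called in Herb vs. OVA at the main settings. It passed the filter on the mean only through the OVA libraries, so its entry into the test is tied to the group where it is high. It has 1 row in the table, and whether assembled models without a symbol hold fragments of this locus was not tested. Ptges3, a prostaglandin E synthase better known as the chaperone partner p23, was at 27.2 to 35.9 in Saline and 11.1 to 21.3 in OVA libraries, a difference of -0.91 ± 0.21 (adjusted p = 0.00925). Ptges3 did not pass with quantile normalization (-0.24) or under the protein-coding sum (-0.38).

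Of 3 tested prostanoid receptors, 2 passed as higher in OVA vs. Saline, beside 19.8% of all genes, and neither call was stable. Ptgir, the prostacyclin receptor, was at 0.214 to 0.407 rescaled FPKM in Saline and 0.626 to 2.16 in OVA libraries, with a log2 difference of 0.86 ± 0.26 (limma adjusted p = 0.0251). Ptgir passed the filter through the OVA and Herb libraries, where it is high. The call of Ptgir was lost without Saline replicate 2 or 3 or OVA replicate 2 or 3 (0.65 to 0.85, adjusted p from 0.062 to 0.0736), and as deposited it lay under the filter. Ptger4, a prostaglandin E2 receptor, was at 1.05 to 1.16 in Saline and 1.89 to 2.26 in OVA libraries, a difference of 0.53 ± 0.17 (adjusted p = 0.0347). As deposited Ptger4 turned to -0.060 (adjusted p = 0.783), and its call was lost without any 1 of the 6 Saline and OVA libraries (0.47 to 0.56, adjusted p up to 0.0895).

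Of 6 tested genes of prostanoid transport and breakdown, 2 fell in OVA vs. Saline and none rose, beside 22.4% and 19.8% of all genes. Hpgd, the dehydrogenase that inactivates prostaglandins, was at 88.9, 128 and 83.6 rescaled FPKM in Saline, 7.32, 5.98 and 1.45 in OVA and 22.9, 23.9, 6.65 and 8.67 in Herb libraries. Its log2 difference was -4.25 ± 0.58 in OVA vs. Saline (SE, limma adjusted p = 0.00122) and -2.78 ± 0.54 in Herb vs. Saline (adjusted p = 0.0183). Slco2a1, the transporter that takes prostaglandins into cells ahead of that step, was at 45.7, 33.5 and 42.3 in Saline, 13.4, 3.64 and 2.56 in OVA and 4.52, 2.96, 1.65 and 9.18 in Herb libraries. Slco2a1 differed by -2.73 ± 0.58 in OVA vs. Saline (adjusted p = 0.0062) and by -3.06 ± 0.54 in Herb vs. Saline (adjusted p = 0.0157). For both genes all OVA and Herb libraries lie below all Saline libraries. Without Saline replicate 2 the Herb vs. Saline difference was -2.59 for Hpgd (limma adjusted p = 0.0777) and -3.19 for Slco2a1 (adjusted p = 0.0627). In that fit 42 of 11174 genes were called, against 1611 at the main settings.

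**Figure D4:**
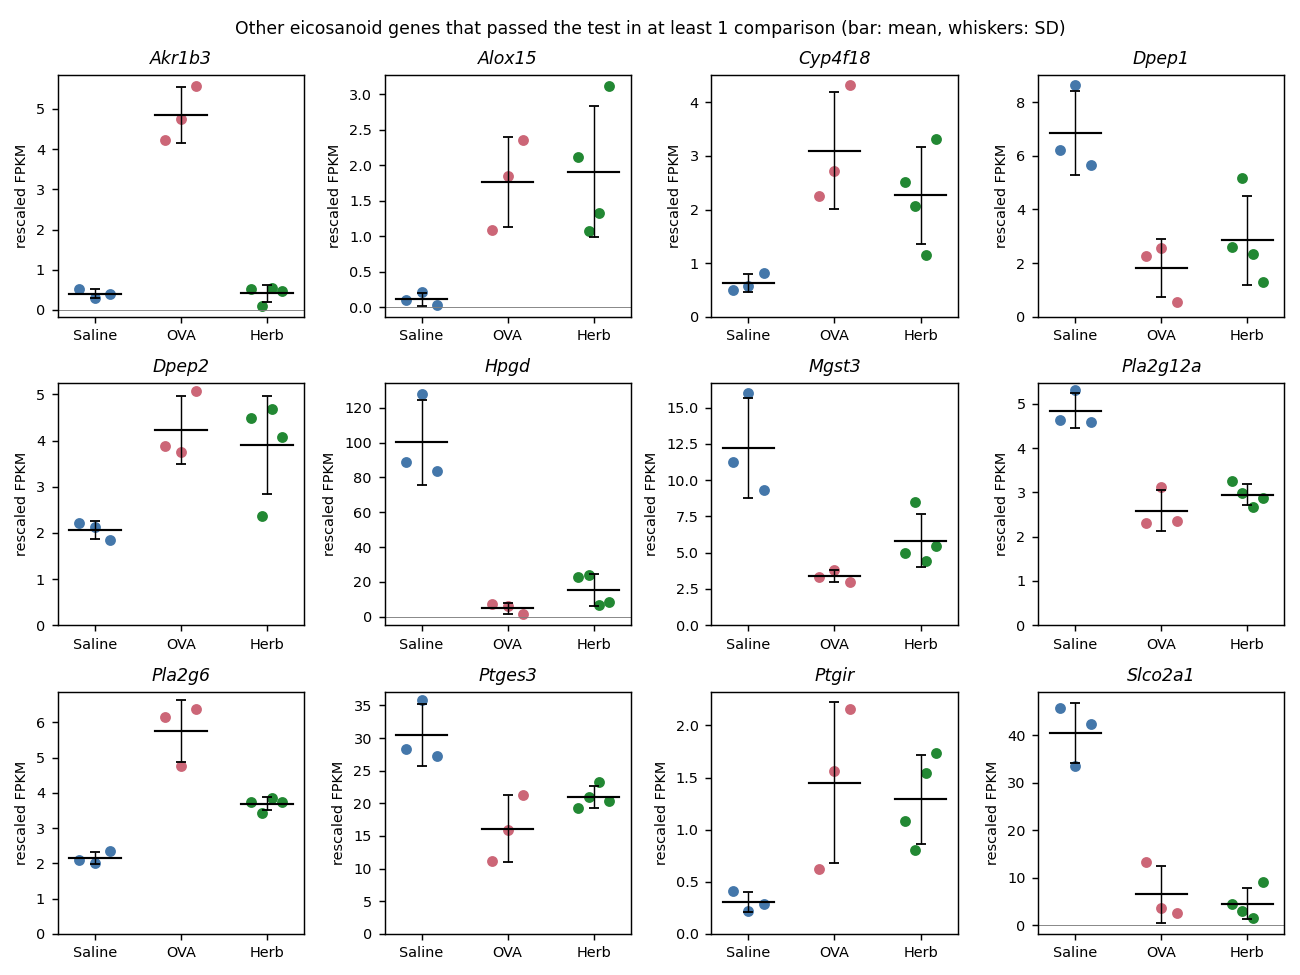
Rescaled FPKM (vertical axis) of 12 other eicosanoid genes in each library (points) of the Saline, OVA and Herb groups, with the group mean (bar) and SD (whiskers). Akr1b3 is high in the 3 OVA libraries, at 4.22 to 5.58, and Hpgd is highest in the 3 Saline libraries, at 83.6 to 128.

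Markers of lung cell types moved with the groups, and their part in the values above was not tested. The summed rescaled FPKM of 5 alveolar type 2 cell markers was 2240 to 2976 in Saline, 507 to 889 in OVA and 908 to 1468 in Herb libraries. Most of this is Sftpc, at 1740 to 2390, 299 to 614 and 589 to 1080. Abca3 went the other way, at 0.849 to 1.034 in Saline and 1.036 to 4.49 in OVA. The 6 endothelial markers summed to 257 to 315, 95.6 to 161 and 141 to 238. Of these Cdh5, Cldn5 and Kdr were lower in OVA than in Saline, while Pecam1, Tie1 and Tek overlapped. The 5 alveolar type 1 markers summed to 357 to 446, 50.7 to 180 and 137 to 266, mostly from Ager, while Rtkn2 overlapped between Saline and OVA. The 8 macrophage markers summed to 880 to 1010, 132 to 453 and 401 to 792, but most of this is lysozyme, Lyz2, at 856 to 979, 92.3 to 412 and 361 to 758. The scavenger receptor Msr1, at 0.786 to 0.871 in Saline, was higher in OVA at 1.78 to 2.60, the mannose receptor Mrc1, at 11.9 to 19.4 and 16.8 to 25.7, overlapped, and Adgre1, at 2.58 to 3.23 in Saline, was at 4.91 to 7.75 in Herb libraries. The 4 airway epithelium markers summed to 9814 to 17532, 4494 to 7565 and 8024 to 10541, nearly all from the club cell protein Scgb1a1, whereas the ciliated cell factor Foxj1 went the other way, at 2.01 to 4.97 in Saline, 12.6 to 30.4 in OVA and 7.05 to 14.5 in Herb libraries. The 5 smooth muscle markers had higher sums in OVA and Herb libraries, at 20.4 to 26.3, 39.9 to 55.7 and 35.1 to 59.2. Of these Tagln, Cnn1 and Des overlapped between Saline and OVA libraries.

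Among cells that make leukotrienes and prostaglandin D2, the 7 eosinophil markers summed to 11.7 to 23.0 in Saline, 3.66 to 9.52 in OVA and 4.75 to 8.19 in Herb libraries. The lower sum comes from Ear1, at 9.35 to 19.6 in Saline and 1.15 to 4.93 in OVA, and Siglecf, at 2.18 to 3.31 and 0.812 to 1.70, both of which alveolar macrophages also make. The other markers of eosinophils were higher in OVA than in Saline, with the exception of Ear6, which was at or near 0. The granule protein Prg2 was listed at 0 in Saline and at 1.25 to 2.20 in OVA libraries, and the peroxidase Epx was at most 0.013 in Saline and at 0.0527 to 0.114 in OVA. The receptor Ccr3 was at 0.0303 to 0.0757 in Saline and 0.149 to 0.405 in OVA, and Il5ra at 0.0715 to 0.110 and 0.169 to 0.235. The 10 mast cell and basophil markers summed to 10.2 to 13.4, 11.9 to 19.6 and 13.0 to 14.4, mostly from the histidine decarboxylase Hdc. Hdc was at 6.19 to 10.07 in Saline, 10.5 to 17.5 in OVA and 10.4 to 12.4 in Herb libraries. Gata2 went the other way, at 2.66 to 3.999, 0.398 to 1.75 and 0.431 to 1.27. Fcer1a, a chain of the IgE receptor, was listed at 0 in OVA and at most 0.118 elsewhere. The 7 neutrophil markers ran from 31.0 to 365 in Saline, 16.1 to 54.2 in OVA and 43.9 to 113 in Herb libraries, with Ly6g listed at 0 in all. Much of the Saline range comes from S100a9, which ran from a listed 0 to 311 in Saline. In OVA libraries S100a9 ran from 0 to 1.35, and in Herb libraries from 0 to 51.7. Sums of 6 T cell markers were 8.42 to 14.5, 6.55 to 8.08 and 7.16 to 14.6, with Trac listed at 0. Cd3e, Cd3d and Cd3g were lower in OVA than in Saline libraries, while Cd2 and Lck overlapped. Sums of 5 platelet markers were 4.84 to 7.51, 3.88 to 6.37 and 5.32 to 9.13. Ppbp, at 1.52 to 2.92 in Saline, was lower in OVA at 0 to 0.775. Itga2b, at 0.754 to 1.28 and 1.42 to 1.82, and Gp1bb were higher in OVA, while Pf4 and Gp9 overlapped. Sums of 5 tuft cell markers were 0.354 to 0.638, 1.19 to 1.53 and 1.19 to 2.52, with Il25 listed at 0. Dclk1, at 0.212 to 0.374 in Saline and 0.563 to 1.31 in OVA, and Trpm5 were higher in OVA, while Avil and Pou2f3 overlapped.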

How the data were processed

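RNA-seq libraries of mouse lung were compared in 3 groups taken from the sample labels. According to the submitters' processing notes, the authors processed the reads with cutadapt 1.10, then aligned them to mm10 with HISAT2, assembled and quantified transcripts with StringTie 1.3.3b and ballgown (named in the methods), and deposited a table of FPKM with 1 row per transcript. The labels and the methods differ on the version of edgeR and on a library kit with or without strand marking. The deposited table holds 34943 rows with a gene symbol and 31605 assembled models without a symbol, which can take fragments of annotated genes.

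FPKM rows were summed per symbol, and each library was multiplied to a common 75th percentile, because the upper quartile of the deposited values differed between groups. Differences were fitted on log2(FPKM + 1) with limma 3.58.1 in R 4.3.3 (lmFit and eBayes with an intensity trend), over all 10 libraries and the 11174 symbols with a mean of at least 1 FPKM, with Benjamini-Hochberg adjustment. A fold on this scale understates changes of low genes. Depth was estimated from FPKM times transcript length in values under 0.1 FPKM, where 44.7% to 51.4% of values lay within 0.1 of a whole fragment, so fragment numbers are approximate. Ratios were tested by exact permutation with SciPy 1.17.1. The fit was tested on simulated data.

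Members and gene lists were chosen with earlier results of these data known. All members and all their rows are named. Of the other pathway genes, those called were named, with at most 6 per comparison and direction in full. Abcc1, Ltb4r1 and Ptger4, outside this limit, were added after their values were seen. No member was called, so no gene of like pattern was sought. Positions are those of GENCODE vM21 on GRCm38. The Cysltr1 locus overlaps Gm5127 on the opposite strand. Replicate numbers did not pair the libraries: deviations of same-numbered libraries correlated at -0.00 to 0.09. Alternatives covered the scaling, the filter, the pseudocount, the groups in the fit, the replicate block, the intensity trend, single rows and leaving out each library.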

Additional observations from a re-analysis of the deposited data

Results flagged for a closer look

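Among the 4 Herb libraries, Hpgds was at 0.822 rescaled FPKM in replicate 1 and between 0.950 and 0.958 in the other 3, so that this library lay apart from a narrow group. The gap is 93.9% of the range of the 4 values. It was the 1 flag among 21 genes examined in the 4 Herb libraries, and chance flags about 1 in 20. Groups of 3 libraries were not examined in this way.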

How the results depend on the processing

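At the main settings 0 members were called in each comparison, and this held without each library in turn. In OVA vs. Saline 5 members were called as deposited and 3 under the common protein-coding sum. With quantile normalization 1 was called (Lta4h, 0.30), beside 4075 of 11174 genes. With the replicate block 1 was called (Alox5ap, -0.48), beside 4390 of 11174 genes. In Herb vs. OVA 2 members were called as deposited. The count of other pathway genes in OVA vs. Saline, 15 at the main settings, was 24 as deposited and 23 under the protein-coding sum. The counts over all genes were 4721 of 11174, 6853 of 11205 and 5387 of 11258. With a minimum mean of 5 FPKM, where fewer genes were tested, the pathway count was 4, beside 2008 of 3771 genes. Without 1 library it was 11 to 15, beside 3554 to 4548 of 11174 genes. In Herb vs. OVA, 1 at the main settings, it was 14 as deposited and 4 under the protein-coding sum. The counts over all genes were 77 of 11174, 4982 of 11205 and 708 of 11258. With a minimum of 5 FPKM the pathway count was 0, beside 24 of 3771 genes. At an unadjusted limma p under 0.05 it was 4 of 13, beside 1284 of 3771 genes. With the replicate block it was 0, where 2 of 11174 genes were called in all. Unadjusted it was 11 of 37, beside 2900 of 11174 genes. Akr1b3 was there at -2.08 (limma adjusted p = 0.0503, from 0.000448 to 0.0503 over its alternatives). Without 1 library the pathway count was 1 to 3, beside 25 to 863 of 11174 genes. The 3 and the 863 are both without OVA replicate 2. In Herb vs. Saline, 8 at the main settings, it was 17 under the protein-coding sum, 5 with quantile normalization and 3 with a minimum of 5 FPKM. The counts over all genes were 1611 of 11174, 2464 of 11258, 697 of 11174 and 896 of 3771. Without 1 library the pathway count was 0 to 12, beside 42 to 1950 of 11174 genes. The 0 and the 42 are both without Saline replicate 2. The causes of these moves were not tested unless stated.

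Of 537 alternative values of the members' log2 differences, 489 kept the direction and the side of the threshold, 11 came to pass it in the same direction and 37 changed sign. Of those 37, 3 also passed the threshold as deposited, Alox5 and Lta4h in OVA vs. Saline and Lta4h in Herb vs. OVA. As deposited, the values that changed sign in OVA vs. Saline were Alox5 -0.42, Ltc4s -0.51, Lta4h -0.79, Ptgs1 -0.087 and Hpgds -0.30. In Herb vs. OVA they were Alox5 0.32, Ltc4s 0.11 and Lta4h 0.50, and in Herb vs. Saline Alox5 -0.10, Lta4h -0.29 and Ptgs2 -0.15. Under the protein-coding sum, Alox5ap was 0.0073 in OVA vs. Saline and Hpgds -0.032 in Herb vs. OVA, and in Herb vs. Saline Alox5ap was 0.12, Ltc4s 0.079, Ptgs1 0.0030, Cysltr1 0.033 and Acsl4 0.10. With quantile normalization Hpgds was -0.037 in OVA vs. Saline, and in Herb vs. Saline Alox5 was -0.0033 and Ptgs2 -0.014. With the replicate block Acsl4 was 0.28 in Herb vs. Saline. The block changed no other member's direction, and the libraries share only a number.

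Taking single rows in place of sums, Acsl4 NM_207625 gave 0.43 in OVA vs. Saline, -0.032 in Herb vs. OVA and 0.40 in Herb vs. Saline. Cysltr1 NM_021476 gave -0.074 in Herb vs. OVA and NM_001281859 gave 0.020 in Herb vs. Saline, and Alox5ap NM_001308462 gave 0.22 in Herb vs. Saline. Without 1 library, the sign changed within the range of Ltc4s in OVA vs. Saline (-0.015 to 0.34), of Alox5 (-0.20 to 0.00042), Hpgds (-0.024 to 0.13) and Acsl4 (-0.060 to 0.85) in Herb vs. OVA, and of Ptgs2 (-0.20 to 0.32) and Acsl4 (-0.998 to 0.35) in Herb vs. Saline. Of the log2 ratios, Ltc4s to Lta4h (-0.10 to 0.41) and Alox5 to Ptgs1 (-0.93 to 0.38) in OVA vs. Saline and Hpgds to Ptgds (-0.020 to 0.48) in Herb vs. Saline did so, and Hpgds to Ptgds turned to 0.22 in OVA vs. Saline with a pseudocount of 0.01. The values with Ptgds rest on the pseudocount and are not read. Of 438 alternative values of the 15 other pathway genes in the comparisons where they were called, 370 were still called, 66 no longer passed and 2 changed sign, Abcc1 (-0.022) and Ptger4 (-0.060), both as deposited in OVA vs. Saline. Of the enzymes above 0 in every library, depth limits Ltc4s most. The listed values of Ptgds, at or under 1.18 fragments, can be failed estimates.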
